A study of Mus musculus with 10 samples.

Results

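The nuclei described here were chosen by a gate meant for CA3 pyramidal neurons, the excitatory neurons of hippocampal field CA3. A nucleus of a hippocampal library was taken when it held at least 2 unique molecular identifiers (UMIs, counts of single captured RNA molecules) from at least 2 different genes among Cpne4, Galnt3, Prss35, Grik4, Trps1, Rnf182 and Pvrl3. It also had to hold no UMI of Gad1 or Gad2, of the dentate genes Prox1, C1ql2 and Dsp, or of the CA1 genes Fibcd1, Spink8 and Slc9a2. This gate selected 200 of 5658 hippocampal nuclei, in a series of 11624 nuclei.

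The nuclei came from archived frozen brain tissue of C57BL/6 mice, from which hippocampus and prefrontal cortex were dissected. They were profiled by DroNc-seq, a droplet method for single nuclei. The series design names 4 mice and 2 regions, and there were 5 libraries per region with the title numbers 0 to 3, number 0 having a library a and a library b. Adding up the 2 libraries of number 0 left 4 units in each region. The labels used here give the strain and no treatment, and no comparison used one. No label says which mouse a title number stands for, so p-values reflect only how far the units differ among themselves, possibly for technical reasons. Hippocampal libraries held 1055 to 1304 nuclei with medians of 643.5 to 1172 UMIs, cortical ones 623 to 1626 nuclei with medians of 1106.5 to 2732. No pair of libraries shared more than 3 cell barcodes.

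CA3 pyramidal neurons receive the mossy fibres of dentate granule cells, excite each other through recurrent collaterals, and project to CA1 through the Schaffer collaterals. They are known for kainate receptors at the mossy fibre synapse, of which the gate gene Grik4 encodes a subunit. Their Cpne4 encodes a copine, a calcium-dependent membrane-binding protein, and Pvrl3 encodes nectin-3, an adhesion protein of the mossy fibre contact.

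The label held for fewer than all of the gated nuclei. The 5658 hippocampal nuclei were clustered without the gate genes and the excluding genes, which gave 24 clusters. One cluster of 218 nuclei, led by Mndal, Ttn, Ifi203, Neurod6, Trhde and Homer3, took 81 of the 200 gated nuclei (40.5%), with 21, 20, 19 and 21 of them in units 0 to 3. It is called the Mndal-led cluster below. Of the 65 gated nuclei that met a stricter gate, at least 3 UMIs from at least 3 genes, 43 lay in it. The gated nuclei of this cluster made up 0.885, 1.90, 1.79 and 1.80% of the hippocampal nuclei of units 0 to 3, lowest in unit 0. The other gated nuclei were spread over 20 clusters. A cluster led by Scube1, Stx1a and Igfn1, whose nuclei all came from unit 0, held 35. A cluster led by Prkcd and Ntng1 held 12, of which 10 came from unit 0. Clusters led by Gfap and Myoc and by Slc1a3 and Htra1, genes of astrocytes, held 11 and 10. The set is therefore called the gated nuclei here, and values pooled over the 81 nuclei of the Mndal-led cluster are given beside the main ones as a description, with no test. The clusters were formed from levels of genes in these same nuclei. High levels of leading genes and low levels of genes of other clusters are therefore partly given by how the cluster was made, and are no separate support.

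**Figure D1:**
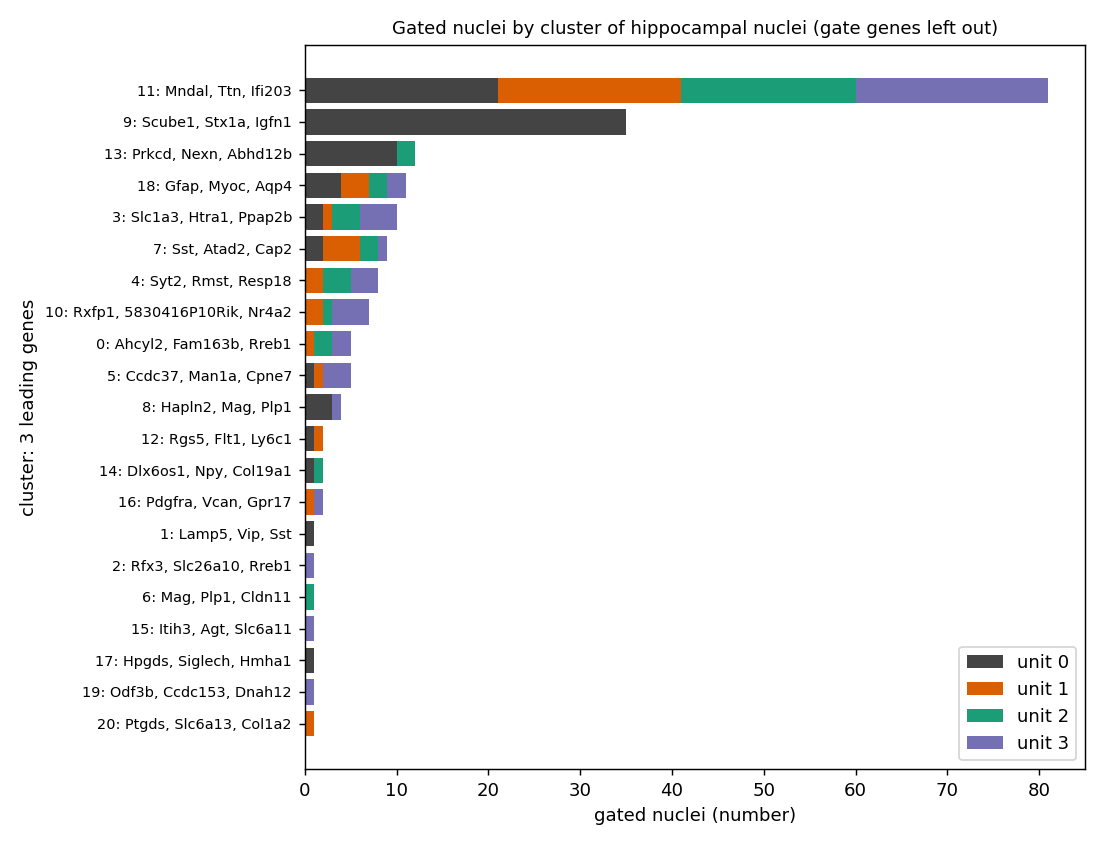
Number of gated nuclei (horizontal axis) in each cluster of hippocampal nuclei (vertical axis, with 3 leading genes), coloured by unit. The Mndal-led cluster holds 81 gated nuclei, 21, 20, 19 and 21 in units 0 to 3, and the Scube1-led cluster holds 35, all of unit 0.

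The gated nuclei were evenly spread over the units. Units 0 to 3 held 82, 37, 36 and 45, which is 3.45, 3.51, 3.39 and 3.86% of their nuclei. The 2 libraries of unit 0 lay further apart, with 4.02% in library a and 2.99% in library b. The gated nuclei were deeper than the rest, with a median of 3153.5 UMIs against 977 in the 5458 other hippocampal nuclei. A gate that asks for 2 UMIs of low genes is passed more readily by a deep nucleus. How much of the difference in depth came from this was not tested. Just inside the threshold stood 83 nuclei with exactly 2 gate UMIs, with a median of 2243 UMIs in all, and 51 held 3 and 66 held 4 or more. Just outside stood 70 nuclei with 2 or more UMIs of 1 gate gene, and 546 with a single gate UMI. A further 143 nuclei were positive for the gate genes but held a UMI of an excluding gene, with a median of 4214 UMIs. In the Mndal-led cluster itself 137 nuclei failed the gate, 86 of them with under 2 gate UMIs and 27 through a UMI of a CA1 gene. Those 137 had a median of 2040 UMIs, against 3069 in the 81 that passed.

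The gate genes themselves are given only as a description of the choice. Trps1, a zinc finger transcription factor, was found in 54.0% of gated nuclei, Grik4 in 53.0%, Pvrl3 in 46.5% and Cpne4 in 35.0%. The rarer ones were Rnf182 in 27.0%, Galnt3 in 17.0% and Prss35 in 22 of the 200 nuclei. The most frequent pair with no further gate gene was Grik4 with Trps1, in 20 nuclei, followed by Trps1 with Pvrl3 in 16.

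The same gate was then applied to the 5966 cortical nuclei, which hold no CA3. It passed 210 of them, 7.74, 2.46, 2.39 and 1.95% in units 0 to 3. The mean over units was 3.55% ± 0.208 (SD, n = 4) in hippocampus and 3.63% ± 2.74 (SD, n = 4) in cortex, and the regions overlapped (two-sided exact permutation test, p = 1.00). Cortical unit 0 stood far above the other cortical units, and without unit 0 the means were 3.58 and 2.27% (exact permutation p = 0.100, the smallest that 3 against 3 can give). Depth differed between the regions, so each nucleus was also thinned to 500 UMIs, which left out 897 hippocampal and 6 cortical nuclei that were shallower. At that depth 0.776% of hippocampal and 0.345% of cortical nuclei passed, 36 and 20 nuclei in all. The hippocampal units lay between 0.526 and 1.24% and the cortical ones between 0.126 and 0.511%. Every hippocampal unit stood above every cortical one (exact permutation p = 0.0286, the smallest that 4 against 4 can give). The nearest pair differed by little, with 5 of 950 and 7 of 1370 nuclei, and the thinning was a single random draw. These shares count the gate genes, so they describe the choice and are no separate support for the label. With the stricter gate the means were 1.15 and 0.445% (exact permutation p = 0.143), cortical unit 0 stood at 1.39% and cortical units 1 to 3 lay between 0.123 and 0.145%. In cortex the gate was passed mostly through Pvrl3, found in 66.7% of the passing nuclei, and Cpne4, in 45.2%, and the pair of both was the most frequent one, in 43 nuclei.

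**Figure D2:**
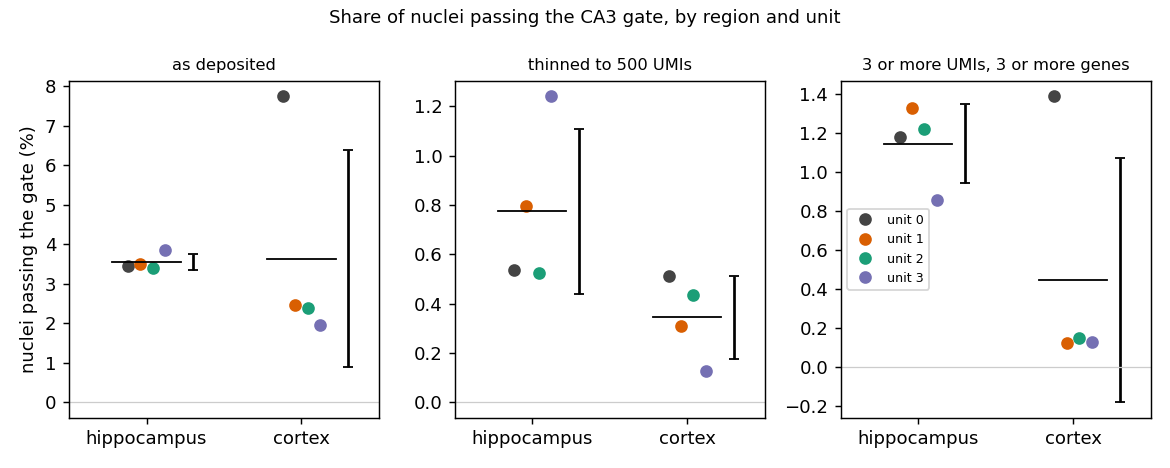
Percent of nuclei passing the gate (vertical axis) in each of 4 hippocampal and 4 cortical units, as deposited, thinned to 500 UMIs and under the stricter gate. Points are units, horizontal lines are means and bars are SDs. Cortical unit 0 reaches 7.74% as deposited, and at 500 UMIs the hippocampal mean is 0.776% against 0.345%.

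Mndal and Ifi203, 2 of the leading genes, lie side by side on chromosome 1 and are shown first, because both rose in the gated nuclei and their counts may not be separable. Both belong to the interferon-inducible p200 family, whose proteins bind DNA in innate immune cells. GENCODE vM21 places Mndal at chr1:173849126-173942491 and Ifi203 at chr1:173920407-173942672, both on the minus strand of GRCm38, so their annotated spans overlap. The 250 bases before the outermost RefSeq start of each gene (GRCm38.p6) follow, with the longest run that the windows share letter for letter, 43 bases, in capitals. The Mndal window is chr1:173880188-173880437 and the Ifi203 window chr1:173942673-173942922, both read on the minus strand. The Mndal window lies inside the GENCODE span of Mndal, so the 2 annotations differ on where that gene starts.
Mndal: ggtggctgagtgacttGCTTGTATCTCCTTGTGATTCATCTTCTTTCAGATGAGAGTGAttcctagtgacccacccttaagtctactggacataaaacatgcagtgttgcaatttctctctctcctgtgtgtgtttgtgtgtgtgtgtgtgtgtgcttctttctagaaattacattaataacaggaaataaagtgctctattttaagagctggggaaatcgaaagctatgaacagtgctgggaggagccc
Ifi203: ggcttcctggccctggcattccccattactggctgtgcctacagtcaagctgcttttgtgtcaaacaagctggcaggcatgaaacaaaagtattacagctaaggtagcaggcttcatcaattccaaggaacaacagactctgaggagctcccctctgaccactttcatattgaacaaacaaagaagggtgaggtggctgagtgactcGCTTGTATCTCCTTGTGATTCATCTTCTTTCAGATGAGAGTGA
The shared run ends at the start of Ifi203 and 191 bases before that of Mndal. It holds CAGATG, a form of the E-box known to be bound by NeuroD factors, which was searched on both strands in the 250 bases before every RefSeq start. No other motif was searched, and whether a NeuroD factor acts on these genes was not tested. At least 1 window held CAGATG for 16.3% of 27025 genes. Among the 8 genes with the largest rise over the other hippocampal nuclei, 7 had a window and 3 held the motif, namely Mndal, Ifi203 and Iyd, the first and second of them in this same run. Among the largest rises of the later comparisons it was held by 0 of 10 genes with a window against CA1, 1 of 9 against dentate and 0 of 4 between regions. In Iyd, at chr10:3540024-3540273 on the plus strand, it stands in capitals.
Iyd: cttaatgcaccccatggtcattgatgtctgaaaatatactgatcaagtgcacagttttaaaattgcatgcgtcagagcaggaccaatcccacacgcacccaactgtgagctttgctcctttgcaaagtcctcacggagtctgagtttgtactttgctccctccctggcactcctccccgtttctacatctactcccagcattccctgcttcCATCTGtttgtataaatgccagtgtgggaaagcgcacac

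Against all other hippocampal nuclei, the gated nuclei had more RNA of Ttn, Mndal, Ifi203, Neurod6 and of 6 genes known from CA3 that the gate did not use, and less of oligodendrocyte and endothelial genes. Levels are counts per 1e6 UMIs (CPM) of the summed nuclei of a unit, and fold changes are log2 values from edgeR with the unit as a block. Of 10277 genes tested, 198 (1.93%) were higher and 209 (2.03%) lower at an adjusted p under 0.05. Without unit 0 the counts were 159 and 128, without unit 2 they were 108 and 127, and without unit 3 they were 109 and 116. Removing gated nuclei with a marker of another cell type, as in the closing section, kept 34 of the 407 calls in both directions. Of the genes named by rule that could be tested there, 14 lost their call and 6 kept their call or lack of one. With nuclei of Prkcd or Slc1a2 left in, 21 kept it and 1 gained a call. The genes named here beyond the 12 largest changes and the list known from CA3 were chosen after their values were seen.

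Ttn, which encodes the giant muscle protein titin, stood at 221, 371, 233 and 198 CPM in the gated nuclei of units 0 to 3 and at 15.5 to 30.0 CPM in the other nuclei. The sets did not overlap, and the difference was 3.37 ± 0.21 (SE) on the log2 scale (adjusted p = 1.35e-12). In the Mndal-led cluster the pooled level was 422 CPM. Mndal was at 73.6, 344, 233 and 215 CPM, lowest in unit 0, against 16.9 to 39.3 CPM (log2 difference 3.04 ± 0.29, adjusted p = 2.08e-08). Ifi203 was at 57.2, 154, 180.4 and 74.3 CPM against 10.7 to 16.1 CPM (3.06 ± 0.34, adjusted p = 7.58e-07). Every gated unit exceeded every comparison unit for all 3 genes. Without unit 0 the differences were 3.63 for Ttn, 3.51 for Mndal and 3.32 for Ifi203.

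Another 5 genes completed the largest rises. Iyd, an iodotyrosine deiodinase, was at 27.2, 45.3, 42.4 and 33.0 CPM against 4.72 to 7.79 CPM (2.45 ± 0.54, adjusted p = 0.00504). Crispld1, which encodes a secreted cysteine-rich protein, rose by 2.08 ± 0.31, with 54.5 to 181 CPM against 18.7 to 31.1. Epha3, an ephrin receptor, rose by 2.07 ± 0.39, and Hs3st4, a heparan sulfate sulfotransferase, by 2.04 ± 0.30. The uncharacterised AI115009 rose by 2.51 ± 0.59 from 20 UMIs in all gated nuclei. It is annotated as antisense, and no source used here says whether counting used strand, so its reads and those of the opposite gene may not be separable. Its call was lost without unit 2 (adjusted p = 0.101) and without unit 3 (0.116).

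Of the 15 listed genes known from CA3 beside the gate, 12 had enough counts to be tested. Homer3, Elavl2, Socs2, Nrip3, Dkk3 and Iyd were higher and none was lower, and the median difference over the 12 was 0.89 against -0.021 over all genes tested. Without unit 0 the same number, 6, was called higher. Nrip3 was at 191, 389, 329 and 289 CPM in gated nuclei and at 111 to 138 CPM in the others (1.19 ± 0.19, adjusted p = 1.18e-04). Elavl2, a neuronal RNA-binding protein, was at 131, 235, 244 and 182 CPM against 76.9 to 109.9 CPM (1.05 ± 0.22, adjusted p = 0.00230, and 0.0555 without unit 2). Socs2, a suppressor of cytokine signalling, was at 153, 208, 265 and 107 CPM against 49.9 to 96.0 CPM (1.40 ± 0.23, adjusted p = 2.02e-04). For these 3 genes the sets did not overlap. Homer3, a scaffold of postsynaptic metabotropic receptors, rose by 1.53 ± 0.31, but unit 0 with 35.4 CPM lay within the range of the other nuclei. Dkk3, a secreted dickkopf protein, rose by 0.87 ± 0.18. Bok (0.91 ± 0.44), Cpne7 (0.41 ± 0.18), Sv2b (0.70 ± 0.25), Ociad2 (0.54 ± 0.18), Npy2r (0.40 ± 0.41) and Nnat (0.11 ± 0.27) did not pass, with adjusted p of 0.0923 to 0.920. Coch, Plagl1 and Slc9a4, too sparse to be tested, had 11, 3 and 9 UMIs in all gated nuclei. Coch had none in the Mndal-led cluster, and all 9 of Slc9a4 lay there.

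All 3 testable excitatory markers were higher, but only 1 of 3 without unit 0 or in nuclei of at least 1000 UMIs. Neurod6, a transcription factor of pyramidal neurons, was at 158, 281, 223 and 413 CPM against 89.4 to 121 CPM (1.33 ± 0.19, adjusted p = 2.73e-05). The vesicular glutamate transporter Slc17a7 was at 272 to 435 CPM against 205 to 252 CPM (0.57 ± 0.15), and Camk2a differed by 0.39 ± 0.11. Both lost their calls without unit 0 (adjusted p = 0.0953 and 0.107), without unit 2 and without unit 3, and Neurod6 passed without any 1 unit. Among 6 kainate receptor genes outside the gate, the auxiliary subunits Neto1 and Neto2 were higher and none was lower. Neto1 was at 98.1, 190.2, 255 and 149 CPM against 66.3 to 78.9 CPM (1.17 ± 0.23, adjusted p = 0.00136), and Neto2 rose by 1.07 ± 0.31 (adjusted p = 0.0448), a call lost without unit 1, 2 or 3 (adjusted p = 0.132 to 0.351).

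Axon guidance genes steer growing axons and persist in adult neurons. Of 35 tested, 9 were higher (Epha3, Epha4, Epha5, Epha6, Nrp2, Robo1, Sema3e, Slit2 and Unc5c) and 3 lower (Efnb3, Sema6a and Sema7a), and the median was 0.30. Robo1, a receptor for Slit ligands, was at 57.2, 90.6, 95.5 and 66.0 CPM against 21.5 to 28.3 CPM (1.53 ± 0.31, adjusted p = 0.00181). Epha6 rose by 1.14 ± 0.29 and Epha4 by 0.56 ± 0.15, and both lost the call without unit 2 (adjusted p = 0.191 and 0.273) and without unit 3 (0.148 and 0.0918). Without unit 0 the counts in this list were 9 and 2, and without unit 2 Epha3, Epha5 and Robo1 were the only members of these 12 that passed. Of 41 vesicle and release genes 8 were higher, among them Snap25 (0.61 ± 0.11) and Syn2 (0.88 ± 0.15), and 1 was lower. Without unit 0 there were 5 higher, and the median of the list went from 0.25 to 0.06. Cacna1a, the P/Q-type calcium channel of nerve terminals, was at 380.4 to 531 CPM against 204 to 274 CPM (0.99 ± 0.15). In the list of kinases, 6 of 28 were higher and 1, Adcy1, was lower, with 3 higher in nuclei of at least 1000 UMIs. No metabotropic glutamate receptor and no NMDA receptor subunit was called in either direction, of 6 and 5 tested with edgeR.

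The genes that fell most were Penk, Hspb1, Anln and Ccnd1, each with 1 UMI in all gated nuclei. Penk, the enkephalin precursor of interneurons, had 300 UMIs in the other nuclei, 26.1 times the gated level with a counting interval of 4.64 to 1033 (95%, exact). The gate excluded nuclei with Gad1 or Gad2 and the other nuclei kept them. A fall of an interneuron gene was therefore favoured in advance by the choice of nuclei. Hspb1 and Ccnd1 had 219 UMIs each, a ratio of 19.0 (3.38 to 755), and Anln, known from oligodendrocytes, had 234, a ratio of 20.3 (3.61 to 807). Such intervals cover counting error only. Without unit 0 the calls of Anln (adjusted p = 0.0797) and Ccnd1 (0.0564) were lost and Hspb1 was not tested. All 5 oligodendrocyte markers and all 3 endothelial markers were lower.

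**Figure D3:**
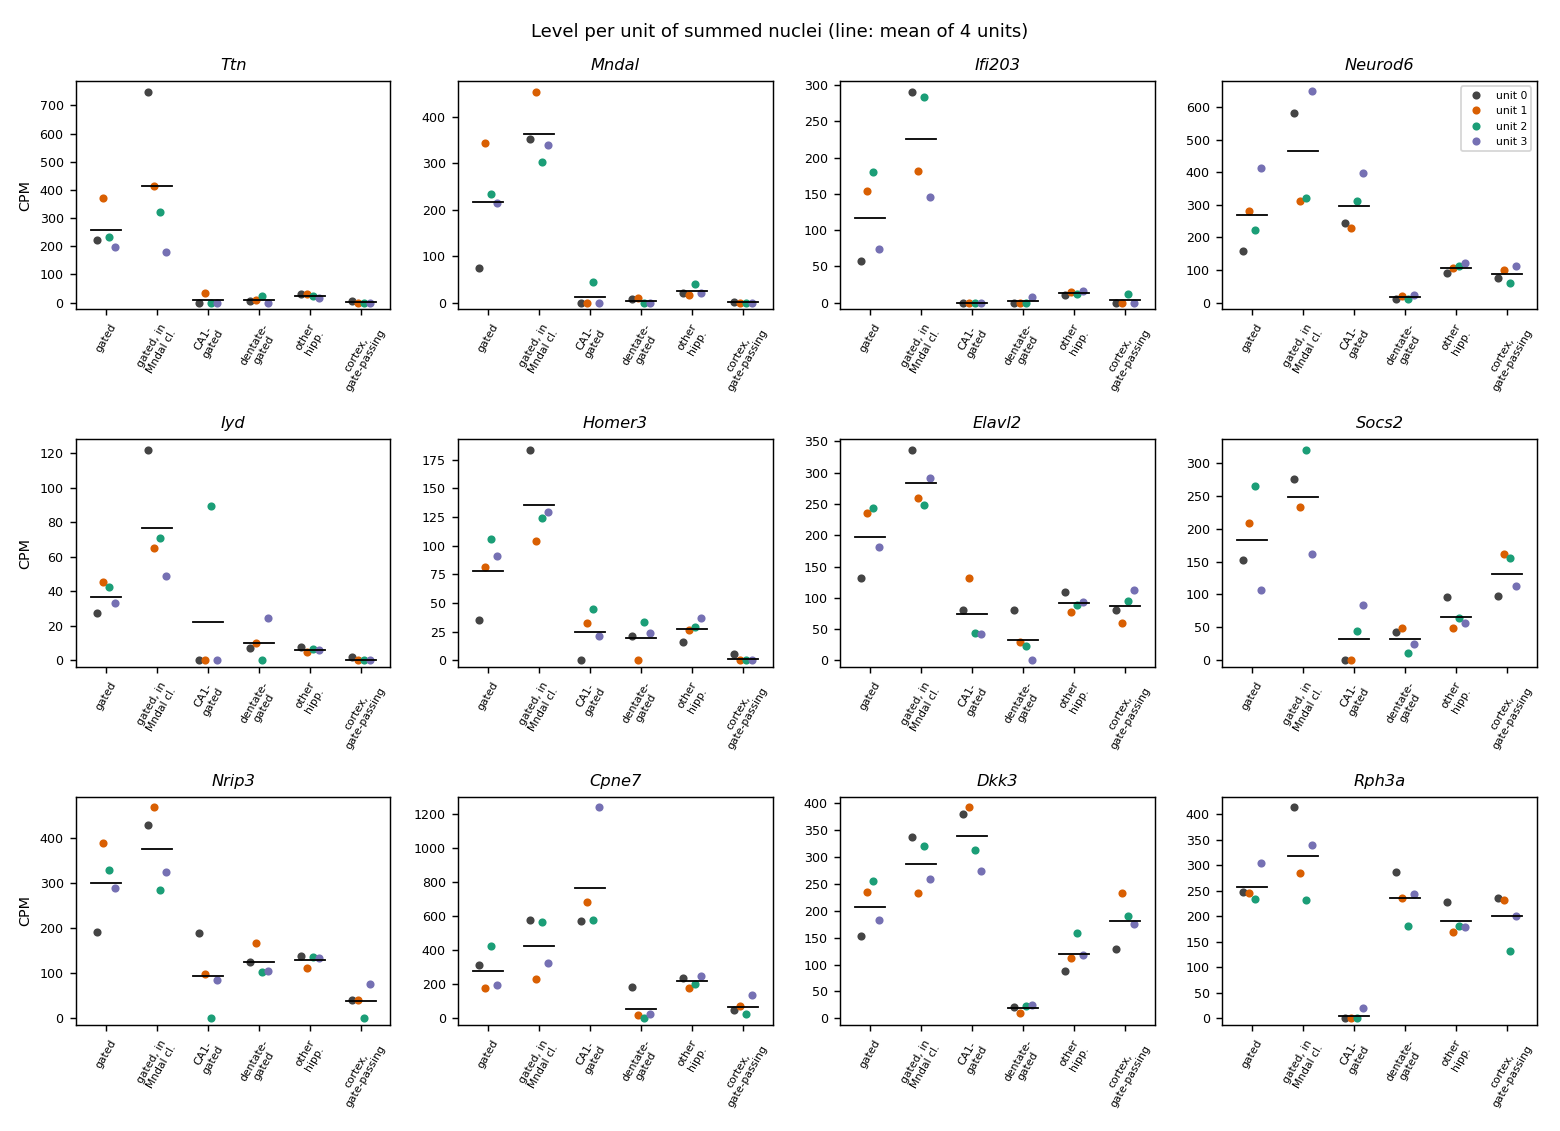
Level in CPM (vertical axes) of 12 genes in each unit for gated nuclei, gated nuclei of the Mndal-led cluster, CA1-gated, dentate-gated and other hippocampal nuclei, and cortical nuclei passing the gate. Points are units and lines are means. Ttn averages 256 CPM in gated nuclei and 24.7 CPM in the other hippocampal nuclei.

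Genes of other cell types moved with these results. Of the 5 astrocyte markers, Slc1a2, Gfap and Aqp4 were higher in the gated than in the other hippocampal nuclei and Slc1a3 and Gja1 were not called. Without unit 2 none of the 3 passed (adjusted p = 0.0600 to 0.0732), and Aqp4 did not pass without unit 0 either (0.0970). Summed over the 5, the gated nuclei held 1717 to 3088 CPM per unit, the other nuclei 1465 to 2205 CPM, the dentate-gated 541 to 1060.1 CPM and the CA1-gated 131 to 923 CPM. None of the 5 was at 0 in the gated nuclei. In the 81 nuclei of the Mndal-led cluster the sum was 679.9 to 1208 CPM, and Slc1a2 made up 837 CPM pooled, Slc1a3 11.5, Gja1 19.2, Gfap 11.5 and Aqp4 3.84 CPM. Slc1a2 encodes the main glutamate transporter of astrocytes, and its RNA is also known from CA3 neurons. It was found in 73.0% of gated nuclei and in 80.2% of those in the Mndal-led cluster.

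Prkcd, a protein kinase C gene, was the one thalamic marker of 5 that was called. It was at 297, 109, 276 and 182 CPM in the gated nuclei and at 239, 55.3, 67.5 and 37.0 CPM in the others (1.24 ± 0.25, adjusted p = 0.00194, and 0.0837 without unit 2). The Mndal-led cluster held it at 192 CPM pooled, while the other thalamic markers Slc17a6 (3.84 CPM), Tcf7l2 (15.3 CPM) and Ntng1 (11.5 CPM) were low there and Lef1 had no UMI. Over all gated nuclei the 5 thalamic markers summed to 245 to 782 CPM, highest in unit 0, against 355 to 671 CPM in the others. None of the 6 cortical layer markers was called. They summed to 109 to 376 CPM per unit, highest in unit 0, against 220.5 to 300.2 CPM in the others. Cux2 was at 144 CPM in unit 0 and 15.3 CPM pooled over units 1 to 3. Gated nuclei outside the Mndal-led cluster held Cux2 at 132 and Rorb at 104 CPM, against 3.84 and 0 CPM inside. Foxp2 and Tshz2 were also lower inside, and Tle4 and Fezf2 were not. The part of astrocyte, thalamic and cortical RNA in the counts of called genes was not tested apart from the alternatives in the closing section.

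**Figure D4:**
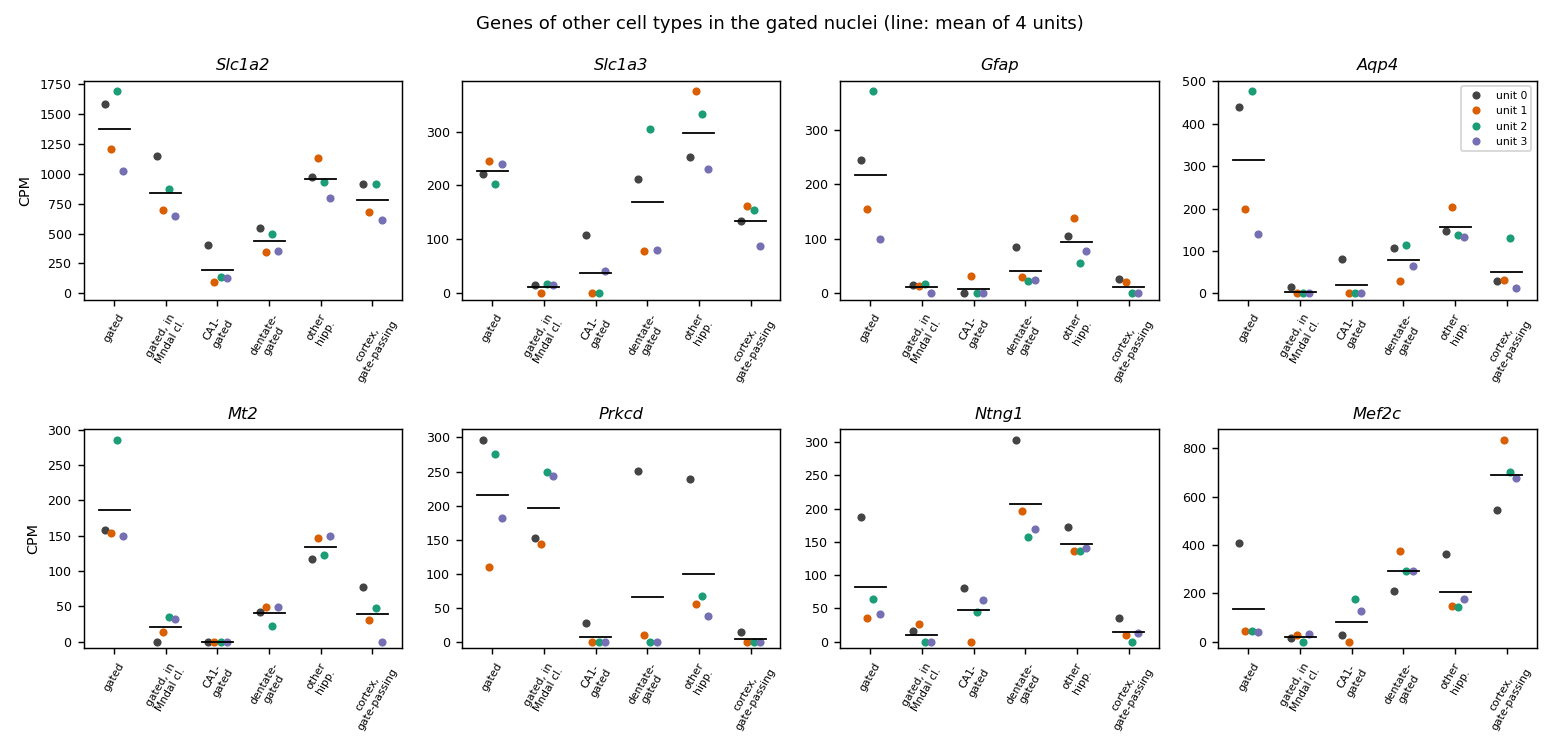
Level in CPM (vertical axes) of 8 genes known from astrocytes, thalamus or cortex in the same sets of nuclei, by unit, with lines at the means. Pooled over the gated nuclei of the Mndal-led cluster, Slc1a2 and Prkcd are at 837 and 192 CPM, and Slc1a3, Gfap, Aqp4 and Mt2 at or below 19.2 CPM.

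The comparison with CA1 asked how these nuclei differed from the neighbouring pyramidal field. The CA1-gated nuclei, with at least 2 UMIs over Fibcd1, Spink8 and Slc9a2, none of the Gad and dentate genes, and not positive for the CA3 gate genes, were 56 in number (11, 13, 10 and 22 in units 0 to 3), and 41 of them fell in a single cluster led by Ccdc37 and Man1a. Their sums were shallow, 22453 to 47599 UMIs per unit against 94250 to 367047 in the gated nuclei. Only 1294 genes could be tested, of which 42 (3.25%) were higher and 53 (4.10%) lower in the gated nuclei. Without unit 1 the counts fell to 13 and 9, without unit 2 to 23 and 21, and without unit 3 the lower count fell to 29. Of the 43 genes called and named by rule in this comparison, 29 lost the call without unit 1, 18 without unit 2, 12 without unit 3 and 5 without unit 0. Rph3a, Cpne9, Ttn, Lmo4, Slc1a2, Mt2, Cit, Snap25, Kcnd2, Atp2b1, Arhgap12, Ccdc37 and Iqgap2 passed each time they could be tested, and the other genes called below each lost the call without at least 1 unit.

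Among the higher genes, the vesicle protein rabphilin, Rph3a, was at 248, 245, 233 and 305 CPM in gated nuclei and had a single UMI in the CA1-gated ones, a ratio of 35.1 (6.23 to 1396, exact 95% counting interval; adjusted p = 1.53e-07). The copine Cpne9 was at 272, 362, 265 and 149 CPM against 1 UMI, a ratio of 36.3 (6.44 to 1443). Ttn was likewise found once in CA1-gated nuclei (33.4, 5.91 to 1325). In the Mndal-led cluster these 3 genes were at 319, 334 and 422 CPM pooled. Lmo4, a LIM-only transcriptional regulator, was at 365, 553, 499 and 462 CPM against 54.3, 65.3, 134 and 84.0 CPM (2.58 ± 0.38, adjusted p = 1.53e-07), and the sets did not overlap. Nrip3 rose by 1.55 ± 0.42 (adjusted p = 0.00820).

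Slc1a2 was at 1588, 1205, 1698 and 1024 CPM against 407, 97.9, 134 and 126 CPM (2.86 ± 0.28, adjusted p = 8.66e-15). It was the called gene with the most UMIs among the 12 largest rises. Several of those 12 were low in the Mndal-led cluster. Mt2, a metallothionein, had 120 UMIs in the gated nuclei and none in the CA1-gated ones, at least 7.94-fold higher against a floor of 3 counts over the group, but stood at 19.2 CPM in the Mndal-led cluster. Slc1a3 (2.44 ± 0.54), the lipid phosphatase gene Ppap2b and Glul (2.02 ± 0.40) were at 11.5, 15.3 and 38.4 CPM there, against means of 227, 335 and 339.7 CPM over all gated nuclei. The citron kinase gene Cit (2.92 ± 0.46) ranged from 145 CPM in unit 1 to 924 CPM in unit 0, and was among the leading genes of the Prkcd-led cluster. Slc4a3, an anion exchanger (2.04 ± 0.43), and the peroxiredoxin Prdx6 (2.18 ± 0.54) were at 272 and 69.1 CPM in the Mndal-led cluster.

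Synaptic genes were read by list. Among 15 vesicle and release genes Rph3a, Snap25 (1.11 ± 0.21) and Syt7 (1.32 ± 0.29) were higher, none was lower, and the median was 0.62 against 0.006 over all genes tested. Snap25 was at 1357, 1413, 1496 and 1552 CPM against 597, 783, 624 and 819 CPM, with no overlap. The pentraxins Nptx1 (1.51 ± 0.48) and Nptxr (1.46 ± 0.36), which cluster AMPA receptors, were higher, the former with its call lost without unit 0 (adjusted p = 0.157). The AMPA receptor list held 2 genes higher and 2 lower of 7. The AMPA subunit Gria1 was at 855, 1594, 1528 and 1659 CPM against 3067, 2447, 2227 and 2059 CPM (-0.77 ± 0.19, adjusted p = 0.00250). That call was lost without unit 0 (-0.39, adjusted p = 0.161), the unit with the lowest gated level. The auxiliary subunit Cnih2 (-1.14 ± 0.36) and the NMDA subunit Grin2b (-0.95 ± 0.20) were lower. Grin2b was at 924, 625, 541 and 718 CPM against 1155 to 1664 CPM, with no overlap.

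Channels, pumps and signalling genes held calls in both directions. Kcnd2, the A-type potassium channel of CA1 dendrites, was at 51.8, 81.5, 63.7 and 74.3 CPM against 244, 294, 489.9 and 231 CPM (-2.06 ± 0.42, adjusted p = 2.07e-04). Pex5l, whose product binds HCN channels, fell by 2.35 ± 0.36. Itpka, an inositol trisphosphate kinase (-1.95 ± 0.51), and the calcium pump Atp2b1 (-1.16 ± 0.15) were lower, the latter with 2499.8 to 3119 CPM against 5231 to 7843 CPM. Of 17 kinase and phosphatase genes 4 were lower (Camkv, Ppp3ca, Ppp3r1 and Prkcb) and none was higher. Kcna1 (1.14 ± 0.38) and the calcium channel subunit Cacnb4 (1.60 ± 0.45, with adjusted p = 0.237 without unit 0) were higher, and Scn3b (-1.21 ± 0.33) and the adhesion receptor Lphn3 (-1.15 ± 0.32) lower.

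The largest falls were Arhgap12 (-3.41 ± 0.49), a GTPase regulator at 8.26 to 49.0 CPM against 299 to 401 CPM, and Ccdc37 (-2.41 ± 0.50). Iqgap2 (-1.90 ± 0.32), the scaffold Homer2 (-1.87 ± 0.49) and the heparan sulfate enzyme Ndst3 (-1.78 ± 0.40) followed. One listed CA3 gene went the opposite way: Cpne7 was at 313, 181, 424 and 198 CPM in gated nuclei and at 569.9, 685, 579 and 1239.5 CPM in CA1-gated ones (-1.43 ± 0.27, adjusted p = 4.49e-05). The collagen Col11a1 (-1.45 ± 0.34) and the noncoding RNA Miat (-0.93 ± 0.20) were lower too. Neurod6 was at 158 to 413 CPM in gated and 228 to 399 CPM in CA1-gated nuclei. Dkk3 (-0.71 ± 0.32, adjusted p = 0.204) and Ociad2 (-0.32 ± 0.32, adjusted p = 0.662) did not pass.

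Dentate granule cells are the source of the mossy fibres. The 354 dentate-gated nuclei (130, 63, 70 and 91 in units 0 to 3) held at least 2 UMIs over Prox1, C1ql2 and Dsp, none of the Gad and CA1 genes, and were not positive for the CA3 gate genes. Of these, 149 and 105 fell in the 2 clusters led by Rfx3 and by Ahcyl2. Of 2636 genes tested, 203 (7.70%) were higher and 199 (7.55%) lower in the CA3-gated nuclei. Of the 91 genes called and named by rule here, 68 kept the call wherever 1 unit was left out and they could be tested, and each of the other 23 that is printed below is named with the loss. These share the gated nuclei with the comparison against CA1, so the values are set side by side and no overlap of the lists is read. Ttn was at 0 to 22.6 CPM in the dentate-gated nuclei (4.84 ± 0.42, adjusted p = 4.11e-07). Neurod6 was at 10.6, 19.7, 11.3 and 24.3 CPM in dentate-gated nuclei against 158 to 413 CPM in the gated ones (4.04 ± 0.34, adjusted p = 3.00e-07). Dkk3 stood at 9.83 to 24.3 CPM against 153 to 255 CPM (3.30 ± 0.35, adjusted p = 4.16e-06).

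**Figure D5:**
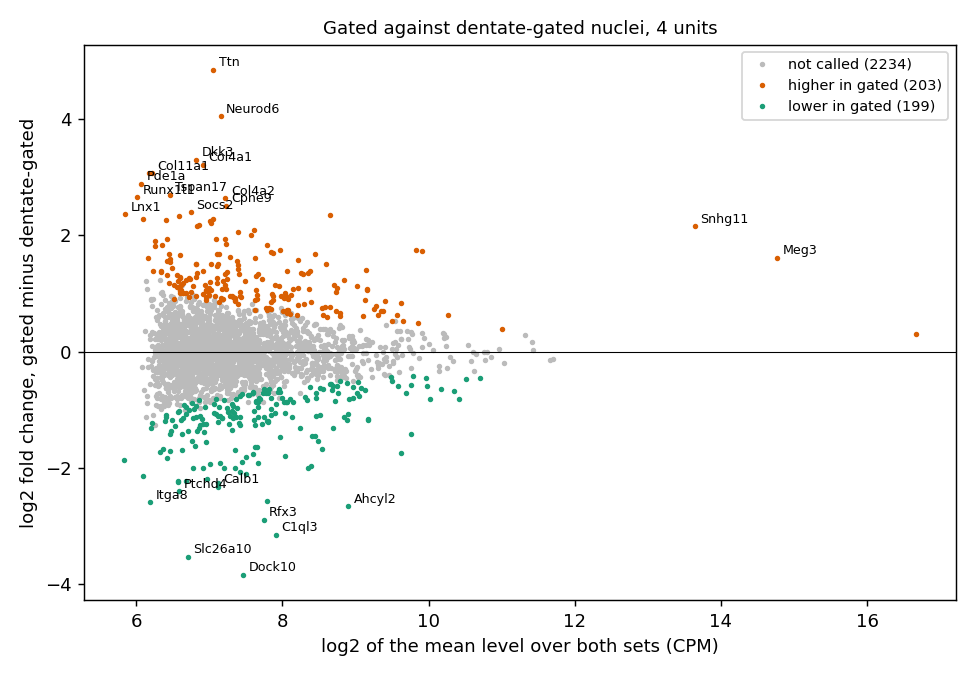
Log2 fold change of gated against dentate-gated nuclei (vertical axis) over the log2 mean level of each gene in CPM (horizontal axis), with called genes in colour. Ttn and Neurod6 lead the 203 higher genes, Dock10 and Slc26a10 the 199 lower ones, and Meg3 and Snhg11 are the most abundant genes labelled.

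A pair of collagen genes of the basement membrane rose. Col4a1 was at 161, 308, 180.4 and 231 CPM against 24.7, 29.5, 0 and 32.4 CPM (3.21 ± 0.37, adjusted p = 9.18e-06), and Col4a2 at 185, 362, 244 and 231 CPM against 35.3 to 49.2 CPM (2.63 ± 0.29, adjusted p = 5.19e-06). They lie head to head on chromosome 8 of GRCm38, Col4a1 on the minus strand with its start at 11312826 and Col4a2 on the plus strand from 11312805, so their first bases overlap. No source used here says whether their counting used strand. Col11a1 rose by 3.06 ± 0.45, and the secreted neural gene Brinp2 by 2.28 ± 0.44. Pde1a, a calmodulin-dependent phosphodiesterase (2.88 ± 0.51), Tspan17 (2.69 ± 0.36), Runx1t1 (2.65 ± 0.47), Cpne9 (2.50 ± 0.36), Socs2 (2.39 ± 0.35) and Lnx1 (2.36 ± 0.52) completed the 12 largest rises, and in the Mndal-led cluster these 6 were at 127 to 334 CPM pooled.

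All 6 testable genes of the list known from CA3 were higher than in dentate-gated nuclei, with a median of 2.11 against -0.010 over all genes tested, and 6 of 6 also without unit 0. Beside Dkk3 and Socs2 these were Elavl2 (2.17 ± 0.45), Cpne7 (2.06 ± 0.43), Ociad2 (1.94 ± 0.29) and Nrip3 (1.25 ± 0.24). Cpne7 was thus higher than in dentate-gated and lower than in CA1-gated nuclei. In dentate-gated nuclei it was at 184 CPM in unit 0 and at 0 to 24.3 CPM in units 1 to 3.

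Kinases and calcium genes differed in both directions. Of 22 kinase and signalling genes, 8 were higher and 4 lower. Camk4 was at 209.8, 190.2, 212 and 256 CPM against 19.7 to 79.0 CPM (2.28 ± 0.32, adjusted p = 7.01e-05), and the protein kinase C gene Prkcb (1.85 ± 0.27) was higher. The cyclase Adcy1 (-1.96 ± 0.27), Camk2b (-0.82 ± 0.14) and the calcineurin subunit Ppp3ca (-0.67 ± 0.13) were lower. The calcium release channels went opposite ways, with Ryr3 at 324, 435, 615 and 429 CPM against 90.3 to 180.2 CPM (1.58 ± 0.24) and Ryr1 at 10.6 to 90.8 CPM against 203 to 276 CPM (-1.91 ± 0.34). Calb1, the calcium buffer calbindin of granule cells, was at 79.0, 9.06, 10.6 and 33.0 CPM against 211 to 327 CPM (-2.32 ± 0.39, adjusted p = 3.62e-04). It was at 3.84 CPM in the Mndal-led cluster. Hpca (0.76 ± 0.24) and Vsnl1 (1.01 ± 0.33), calcium sensors, were higher, with calls lost without unit 1, 2 or 3, and the exchanger Slc8a2 was lower (-1.26 ± 0.25). In unit 0 Hpca went the opposite way, with 259 CPM in gated and 329 CPM in dentate-gated nuclei.

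Among channels, 4 of 15 potassium channel genes were higher and 5 lower, and 2 were higher and 5 lower without unit 0. Kcnn2, a calcium-activated channel, was at 106, 127, 127 and 182 CPM against 29.5 to 56.5 CPM (1.59 ± 0.33), and Kcnc2 (1.81 ± 0.48) and Kcnma1 (0.72 ± 0.21) were higher. Kcnma1 lost its call without unit 0 (adjusted p = 0.0654), 2 or 3, and Kcnc2 without unit 2 (0.100). Kcnj3 (-1.21 ± 0.27) and the Kv4 partner Dpp6 (-0.99 ± 0.21) were lower. Sodium and calcium channel genes gave 4 higher and 3 lower of 14. Cacna1a (1.33 ± 0.19) and Cacna1b (1.07 ± 0.26) were higher, and Scn3a (-1.46 ± 0.29), Scn3b (-0.91 ± 0.23) and the T-type channel Cacna1h (-1.37 ± 0.36) lower. Scn3b lost its call without unit 0 (adjusted p = 0.102), and Cacna1h without unit 1 (0.0511) or 2 (0.0804). Of the receptor genes, Neto1 (1.04 ± 0.29) and Gria4 (0.92 ± 0.25) were higher, and Gabra4 (-1.04 ± 0.32) and the AMPA-associated Olfm1 (-0.59 ± 0.14) lower. The calls of Neto1 and Gabra4 were lost without unit 1, 2 or 3 (adjusted p = 0.0706 to 0.156), and that of Gria4 without unit 0 (0.175). Gria4 was at 80.6 CPM in the Mndal-led cluster, below its mean of 182 CPM over all gated nuclei.

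Cadherins and guidance receptors shape which cells a neuron contacts. Of 7 cadherin genes 3 were lower (Pcdh17, Pcdh20 and Cdh8) and none was higher, against 1 lower and 1 higher without unit 0, where Pcdh20 (adjusted p = 0.153) and Cdh8 (0.0813) did not pass. Pcdh17 was at 92.6, 18.1, 10.6 and 57.8 CPM against 152 to 344 CPM (-2.01 ± 0.41). Of 14 guidance genes, Epha5 was higher (1.13 ± 0.20) and 4 were lower, among them Sema5a (-2.11 ± 0.28), Efnb3 (-2.14 ± 0.39) and Epha7 (-0.85 ± 0.17). The median of the guidance list was -0.42 and turned to 0.05 without unit 0, where 1 was higher and 2 were lower. The neurexin Nrxn3 (1.35 ± 0.23) and the receptor phosphatase Ptprs (0.80 ± 0.20) were higher, and Tenm1 (-1.62 ± 0.32), Lrrtm4 (-1.68 ± 0.46) and Ntng1 (-1.15 ± 0.29) lower. Without unit 1 Lrrtm4 (adjusted p = 0.0691) and Ntng1 (0.0511) did not pass, nor did Lrrtm4 without unit 2 (0.105). Nrxn3 was at 436, 480.0, 456 and 363 CPM against 98.3 to 235 CPM, with no overlap. Cadm2 (-0.53 ± 0.16) and the matrix genes Nell2 (-0.66 ± 0.16) and Spock3 (-0.98 ± 0.28) were lower. Without unit 0 Cadm2 (adjusted p = 0.101) and Spock3 (0.160) lost their calls, as they did without unit 3 (0.102 and 0.0716).

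Release genes held calls in both directions. Cadps (1.60 ± 0.23), Syn2 (1.07 ± 0.21) and Snap25 (0.63 ± 0.13) were higher, and Cplx2 (-1.17 ± 0.16), Synpr (-2.01 ± 0.32) and Stxbp6 (-2.19 ± 0.40) lower, in all 5 higher and 3 lower of 22. Synpr, a vesicle protein of mossy fibre terminals, was at 16.3, 54.3, 53.1 and 74.3 CPM against 131 to 235 CPM. Of 20 transcription factor genes 4 were higher and 5 lower. Lmo4 (1.38 ± 0.19), Neurod6 and Bcl11a (0.94 ± 0.28, lost without unit 1, 2 or 3) rose, and Rfx3 (-2.89 ± 0.30), Bcl11b (-2.26 ± 0.30) and Nfia (-1.35 ± 0.30) fell. Bcl11b was at 30.0, 72.5, 31.8 and 49.5 CPM against 147 to 381 CPM. The peptides Chgb (0.88 ± 0.23) and Cck (0.75 ± 0.25) were higher, and Scg2 (-1.09 ± 0.23) and the PACAP receptor gene Adcyap1r1 (-1.13 ± 0.32) lower. Chgb lost its call without unit 2 (adjusted p = 0.117) or 3 (0.0733), Cck without unit 1, 2 or 3 (0.148 to 0.233), and Adcyap1r1 without unit 1 (0.0582). In unit 0 Chgb, at 308 against 360.4 CPM, and Cck, at 191 against 208 CPM, were lower in the gated nuclei. Jun, the only immediate early gene of the list with enough counts, was lower, with a level of 10.6 to 57.2 CPM per unit against 124 to 246 CPM.

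Nuclear noncoding RNAs were among the most abundant transcripts, and 5 of 7 were higher and 1 lower, with a median of 1.23. Snhg11 was at 19120.2, 22154, 21411 and 18971 CPM against 7809, 4945, 4312 and 3534 CPM (2.15 ± 0.15, adjusted p = 3.06e-08). Meg3 was at 35818, 46057, 41082 and 41664 CPM against 12360.3 to 17459 CPM (1.61 ± 0.11, adjusted p = 3.06e-08), and Rian, from the same imprinted locus, rose by 1.23 ± 0.17. Neat1, of the paraspeckles, fell by 1.13 ± 0.22. Both testable mitochondrial ribosomal RNAs were lower, mt-Rnr1 (-1.54 ± 0.37) and mt-Rnr2 (-0.79 ± 0.19), and neither passed without unit 0. Of 14 ribosomal protein genes tested only Rpl4 was lower (-0.71 ± 0.23), a share near the 7.55% lower over all genes tested. Rpl4 did not pass without unit 0 (adjusted p = 0.250), 1 (0.176) or 3 (0.0506).

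The 8 largest falls against the dentate were Dock10 (-3.84 ± 0.41), Slc26a10 (-3.53 ± 0.41), C1ql3 (-3.15 ± 0.31), Rfx3, Ahcyl2 (-2.66 ± 0.22), Itga8 (-2.59 ± 0.50), Ptchd4 (-2.40 ± 0.36) and Calb1. C1ql3, a secreted synaptic C1q-like protein, was at 57.2, 18.1, 10.6 and 57.8 CPM against 314 to 599.8 CPM, and Dock10 had no UMI in gated units 1 and 2. Markers of other cells moved here too. Of 5 astrocyte markers 4 were higher and 4 of 4 testable oligodendrocyte markers lower in the gated nuclei, the latter list summing to 289.8 to 859 CPM per unit against 1456 to 2682 CPM, with their part in the other calls not tested.

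Cortical nuclei that passed the same gate gave a comparison in which the choice of nuclei was alike on both sides. Of 2320 genes tested, 55 (2.37%) were higher in the hippocampal gated nuclei and 33 (1.42%) lower. Without unit 0 the counts were 128 and 141, and 82 of the 88 genes called with unit 0 were among them. Ttn was at 3.90, 0, 0 and 0 CPM in cortex, with 2 UMIs in all, a ratio of 94.1 (25.6 to 783, exact 95% counting interval; adjusted p = 1.44e-07). Zbtb20, a transcription factor of hippocampal pyramidal cells and of astrocytes, was at 1155, 4239, 3692 and 3352 CPM against 171 to 343 CPM (3.66 ± 0.32, adjusted p = 2.08e-07), and at 4509 CPM in the Mndal-led cluster. Nrip3 was at 191 to 389 CPM against 0 to 75.2 CPM (2.89 ± 0.38, adjusted p = 7.98e-05), and Prkcd at 109 to 297 CPM against 0 to 13.6 CPM (4.65 ± 0.51). Cpne7 (2.23 ± 0.37) and Elavl2 (1.21 ± 0.31, lost without unit 1, 2 or 3) were higher, while Socs2 (0.56 ± 0.31, adjusted p = 0.403), Dkk3 (0.26 ± 0.27, adjusted p = 0.766), Sv2b (-0.32 ± 0.28, adjusted p = 0.687) and Ociad2 (-0.16 ± 0.25, adjusted p = 0.861) did not pass.

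Astrocyte genes were again among the largest rises: Gfap was at 245, 154, 371 and 99.1 CPM against 0 to 25.3 CPM (3.58 ± 0.49) and Aqp4 at 140.3 to 477 CPM against 12.5 to 131 CPM (2.96 ± 0.47), and both were at or below 11.5 CPM in the Mndal-led cluster. Lower in hippocampus were Mef2c, BC030499, Lrrc4c, Cpeb2, Col6a1 and Gda. Mef2c, a transcription factor of cortical neurons, was at 409, 45.3, 42.4 and 41.3 CPM in the gated hippocampal nuclei against 546 to 836 CPM in cortex (-1.92 ± 0.43, adjusted p = 0.0108). The call was lost without unit 1, 2 or 3 (adjusted p = 0.0779 to 0.142). Its high value came from unit 0, and without that unit the difference was -3.99 (adjusted p = 3.87e-16). BC030499 showed the same split, with 174, 9.06, 21.2 and 24.8 CPM (-1.91 ± 0.42, and -3.98 without unit 0), and lost its call without unit 2 (adjusted p = 0.133) or 3 (0.0841). Col6a1 lost its call without unit 1, 2 or 3, and Gda without unit 2 (adjusted p = 0.0526). Unit 0 also held all 35 gated nuclei of the Scube1-led cluster. Lrrc4c, a netrin-G ligand, was at 31.8 to 57.2 CPM against 129 to 211 CPM (-1.80 ± 0.32), and the guanine deaminase Gda fell by 1.58 ± 0.30.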

How the data were processed

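The authors deposited unnormalised UMI counts of each gene in each nucleus. The submitters' processing notes name STAR 2.4.0a24, Seurat and the build mm10. It has 23589 genes and 13313 columns. A set of 1689 columns, named mHP3, matched no label and was not used. The gate, the members and the gene lists were chosen with earlier results of these data known.

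Hippocampal nuclei were clustered with scanpy 1.11.5 (2000 variable genes, 40 components, Leiden resolution 2.0) without the gate genes. Counts were summed per unit and set of nuclei. They were tested with edgeR 4.0.16 in R 4.3.3 (TMM, filterByExpr with a minimum count of 10, quasi-likelihood test, Benjamini-Hochberg over all genes tested), gate genes left out. The unit was a block, except between regions. CPM values scale each sum, of 22453 UMIs or more, to 1e6 UMIs. Shares were compared by exact permutation. On simulated counts with a log2 change of 1, 45% of changed genes were recovered against the other nuclei, 58% against CA1, 71% against dentate and 69% between regions, and with a log2 change of 2 these were 91, 92, 98 and 99%.

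The genes with the largest folds were named that passed an adjusted p of 0.05, averaged 20 CPM in the higher set and had no overlap between the units of the sets (8 higher and 4 lower against the others, 12 and 8 against CA1 and dentate, 6 and 6 between regions). Up to 3 members per list and direction with the smallest p against CA1 or dentate were added, with all measured genes known from CA3. Genes named outside this rule were chosen after their values were seen. Predicted genes were not named. Doublets were not removed in the main fits. Strand use, UMI collapsing and nucleus calling are not given in the sources used here. A few genes that the rule named are not reported here.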

Additional observations from a re-analysis of the deposited data

Results flagged for a closer look

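In 17 of the 152 groups of 4 units examined, 1 unit stood apart from the other 3 by Dixon's criterion, which chance alone meets in about 1 of 20 groups, and 12 of the 17 were in unit 0. Values are CPM in the gated nuclei. Penk, Hspb1 and Ccnd1 were each at 2.72 in unit 0, and Anln was at 10.6 in unit 2, with no UMI of them in the remaining units. Each of these 4 had a single UMI in all gated nuclei, which meets the criterion by construction, so they cannot be set against the chance rate. Npy2r, a neuropeptide Y receptor, was at 82.6 in unit 3 against 16.3 to 21.2. Mt2 was at 286 in unit 2 against 149 to 158. Itpka was at 136 in unit 0 against 16.5 to 31.8, and Ndst3 was at 0 in unit 2 against 99.6 to 107. In unit 0 Gria1 was at 855 against 1528 to 1659, Hpca at 259 against 579.7 to 636, Chgb at 308 against 851 to 934, and Cadm2 at 357 against 426 to 435. Higher there were Lrrtm4, at 68.1 against 9.06 to 16.5, Mef2c, at 409 against 41.3 to 45.3, and BC030499, at 174 against 9.06 to 24.8. Camk2b was at 850.3 in unit 3 against 658 to 681. The share of cortical nuclei passing the gate was 7.74% in unit 0 against 1.95 to 2.46%.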

How the results depend on the processing

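Counts are given as genes higher and lower. Against the other hippocampal nuclei (198 and 209), DESeq2's Wald test gave 119 and 60, the stricter gate 101 higher, and leaving out 1 unit 108 to 159 and 116 to 196. Against CA1 (42 and 53), the Wald test gave 19 and 17, removal of the top doublet scores 23 and 27, no filter on low counts 101 and 21, the stricter gate 11 and 17, and leaving out 1 unit 13 to 46 and 9 to 48. Against dentate (203 and 199), the Wald test gave 89 and 73, no filter 325 and 308, the stricter gate 121 and 123, and leaving out 1 unit 147 to 215 and 134 to 198. Between regions (55 and 33), no filter gave 134 and 116, the stricter gate 12 and 3, and leaving out 1 unit 31 to 128 and 4 to 141. Removing every gate-passing nucleus with a marker of another cell type left 40 gated nuclei in hippocampus. This gave 1 and 81 calls against the others, 3 and 3 against CA1, 32 and 33 against dentate and 4 and 3 between regions. The other, CA1-gated and dentate-gated nuclei were not filtered in this or the next setting. Lower levels of the markers used for removal were therefore fixed in advance there. That removal takes nuclei with Prkcd or Slc1a2, so it was repeated with both kept, an alternative chosen after seeing the data. It gave 601 calls against the others, of which 402 were lower and the rest higher. There were 20 and 28 calls against CA1, 305 in both directions against dentate, and 22 and 12 between regions. Without the replicate block the counts against the others were 119 and 107. With a replicate block between regions they were 64 and 44. Deviations of same-numbered units from their region means had r of 0.292, -0.00718, 0.00703 and 0.0582 across genes, which are not independent replicates. Such values cannot tell whether same-numbered units came from 1 mouse, and the labels do not say. The regional difference in the share passing the gate, -0.0829 percentage points, became 0.431 after thinning, 0.566 after thinning without unit 0, 0.702 with the stricter gate and 1.62 at 1000 UMIs or more, and ranged from -0.746 to 1.32 on leaving out 1 unit. It was the same with the replicate block. For single named genes, 1722 values under an alternative kept their call or lack of one, 323 lost the call and 2 gained it. None changed direction where either fit called the gene. Direction was not compared where neither did, and genes not tested under an alternative were not counted. The fewer genes tested under the stricter gate and marker removal are part of those settings, and for the other changes the cause was not tested. The shallow CA1 sums limit what could be detected there.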
